A study of Mus musculus with 12 samples.

Results

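Osteocytes are the cells that osteoblasts become when they are buried in the bone matrix they make, and they stay connected through long dendrites. 6 genes that mark this path were read in all 12 libraries, out of 23284 genes in the table of the sorted bone cells and 24346 in the table of the cell line. They were podoplanin (Pdpn), dentin matrix protein 1 (Dmp1), the phosphate-regulating endopeptidase of the X chromosome (Phex), matrix extracellular phosphoglycoprotein (Mepe), sclerostin (Sost) and fibroblast growth factor 23 (Fgf23). The genes were chosen by name, and each symbol was listed in both tables.

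The first experiment compared osteoblasts of Col2.3-ECFP mice, in which a fragment of the type I collagen promoter drives a cyan fluorescent protein. Female mice of 12 weeks received vehicle or the amino-terminal fragment PTH(1-34) of parathyroid hormone (40 µg/kg daily, 5 days a week, over 3 weeks), and 7AAD-Lin-CD45-ECFP+ cells were sorted 24 h after the last injection (3 libraries each). The second compared MC3T3-E1 cells, a line of mouse calvarial preosteoblasts, that carried a retrovirus with no insert (mock) or with Slpi, which encodes secretory leukocyte protease inhibitor (3 libraries each). The promoter fragment is active in osteoblasts and osteocytes alike, whether each sorted library held 1 mouse or several was not stated in the sources used here, and nothing stated that the libraries of the cell line came from separate transductions, so their p-values may measure technical spread alone. RNA of the sorted cells was amplified with a low-input kit. For the line the labels name a stranded mRNA kit and the study's methods name the low-input kit, and this was not resolved. The 2 tables were normalised separately, so levels set side by side across them are a description.

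Commitment to the osteocyte is gradual. Podoplanin, a membrane glycoprotein needed for dendrite growth, appears in cells that are being embedded. Dmp1, Phex and Mepe follow as the matrix mineralises, and sclerostin and FGF23 are products of the mature osteocyte. Sclerostin binds the Wnt co-receptors LRP5 and LRP6 and restrains bone formation, and parathyroid hormone is known to lower its gene's expression. FGF23 acts on the kidney to waste phosphate, and loss of either Dmp1 or Phex raises it.

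The promoters of the 2 most abundant members and of the 2 least abundant in the sorted cells are printed to show what lies directly before each start. The 250 bases before the RefSeq start are given on the gene's own strand (build GRCm38.p6). Capitals mark the RUNX core TGTGGT (or ACCACA, its reverse complement), bound by the osteoblast factor RUNX2, and the half-site of the cAMP response element TGACG (or CGTCA), a signal that the PTH receptor sets off.
Dmp1, chr5:104202367-104202616, + strand: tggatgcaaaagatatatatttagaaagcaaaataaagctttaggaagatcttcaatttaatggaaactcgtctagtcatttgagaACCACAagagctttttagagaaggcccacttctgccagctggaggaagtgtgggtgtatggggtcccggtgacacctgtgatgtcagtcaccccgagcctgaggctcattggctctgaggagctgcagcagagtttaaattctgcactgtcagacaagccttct
Phex, chrX:157415287-157415536, - strand: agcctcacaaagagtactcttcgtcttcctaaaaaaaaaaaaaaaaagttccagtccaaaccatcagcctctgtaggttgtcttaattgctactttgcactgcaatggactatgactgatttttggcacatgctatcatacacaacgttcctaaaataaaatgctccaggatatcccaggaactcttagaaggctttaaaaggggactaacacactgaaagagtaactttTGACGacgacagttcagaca
Sost, chr11:101967016-101967265, - strand: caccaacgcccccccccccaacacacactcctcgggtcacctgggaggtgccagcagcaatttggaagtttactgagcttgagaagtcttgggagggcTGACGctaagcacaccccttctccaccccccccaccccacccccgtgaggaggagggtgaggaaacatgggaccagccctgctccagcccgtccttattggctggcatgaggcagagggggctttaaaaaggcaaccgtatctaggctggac
Fgf23, chr6:127072652-127072901, + strand: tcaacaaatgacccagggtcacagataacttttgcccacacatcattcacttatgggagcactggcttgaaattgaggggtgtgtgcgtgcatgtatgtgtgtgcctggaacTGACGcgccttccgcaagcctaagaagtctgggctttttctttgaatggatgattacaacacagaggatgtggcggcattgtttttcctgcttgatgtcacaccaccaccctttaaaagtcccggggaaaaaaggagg
The Dmp1 window held 1 RUNX core, 164 bases before the start, and no half-site. The windows of Phex, Sost and Fgf23 each held 1 half-site, 20, 152 and 138 bases before the start, and no RUNX core. In the GENCODE annotation Phex begins at chrX:157415312, inside its printed window, so by that start its half-site lies within the gene. Of the other members, Mepe had 2 RUNX cores (118 and 80 bases before the start) and Pdpn had neither. Among 32851 windows of the same length, 14.05% held a RUNX core and 17.77% a half-site, so each match is common. The consensus of MEF2, a factor known to act on Sost through a distant enhancer, was in none of the 6 windows and in 0.508% of all. No match overlapped another in these windows, and a match is not a binding site.

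Depth and purity touch all values of the sorted cells. The steps of low FPKM values (fragments per kilobase of transcript, scaled to the depth of the library) gave relative depths of 0.787 to 1.402 among the sorted libraries and 0.870 to 1.000 among those of the line, each relative to the first control. Slpi, the check of the overexpression, was at 377, 396 and 386 FPKM in mock and 2105, 1973 and 1848 in Slpi libraries. In the sorted cells, markers of T and NK cells summed to 103 to 163 FPKM in vehicle and 1.18 to 23.3 in PTH libraries, with 5 of 7 tested genes lower, and neutrophil markers to 378 to 471 and 703 to 2363, with 7 of 11 higher. Muscle markers summed to 1507 in PTH replicate 2, against 5.27 to 16.4 in the other 5 libraries. In that library Actc1 (609), Tnnt2 (365), Acta1 (314), Myh6 (179) and Ckm (33.2) were high, while Myl1 (5.94), Tnnt3 (0.317) and Myh4 (0) stayed low. Col1a1 and Col1a2, the type I collagen genes, were listed at 0 in vehicle replicate 3 and in all 3 PTH libraries, against 24170 to 26655 FPKM in the other 2 vehicle libraries, and an exact 0 for genes of this abundance can be a failed estimate. The part of these differences in the results on the 6 genes was not tested. In bulk RNA, fewer cells of a type and less RNA per cell cannot be told apart.

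Sorted Col2.3-ECFP cells held Dmp1 and Phex at levels among the highest of all genes, while Sost and Fgf23, the late osteocyte products, were below 2 FPKM in every library (percentiles 46.1 to 53.2 and 40.0 to 47.0 in vehicle libraries). FPKM is per length, so genes can be ordered by it. In vehicle libraries the mean level was 800 ± 66.4 FPKM for Dmp1, 111 ± 9.30 for Phex, 37.2 ± 4.64 for Pdpn, 4.64 ± 1.14 for Mepe, 0.892 ± 0.481 for Sost and 0.489 ± 0.256 for Fgf23 (SD, n = 3). Dmp1 was the gene of rank 63 to 77 from the top. Neighbours in the order had ranges over the 3 libraries that did not overlap, except Sost and Fgf23. The order of the means was the same under PTH, where the ranges of Mepe and Sost overlapped and those of Sost and Fgf23 did not. Within each of the 6 libraries, Mepe was above Sost and Sost above Fgf23.

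**Figure D1:**
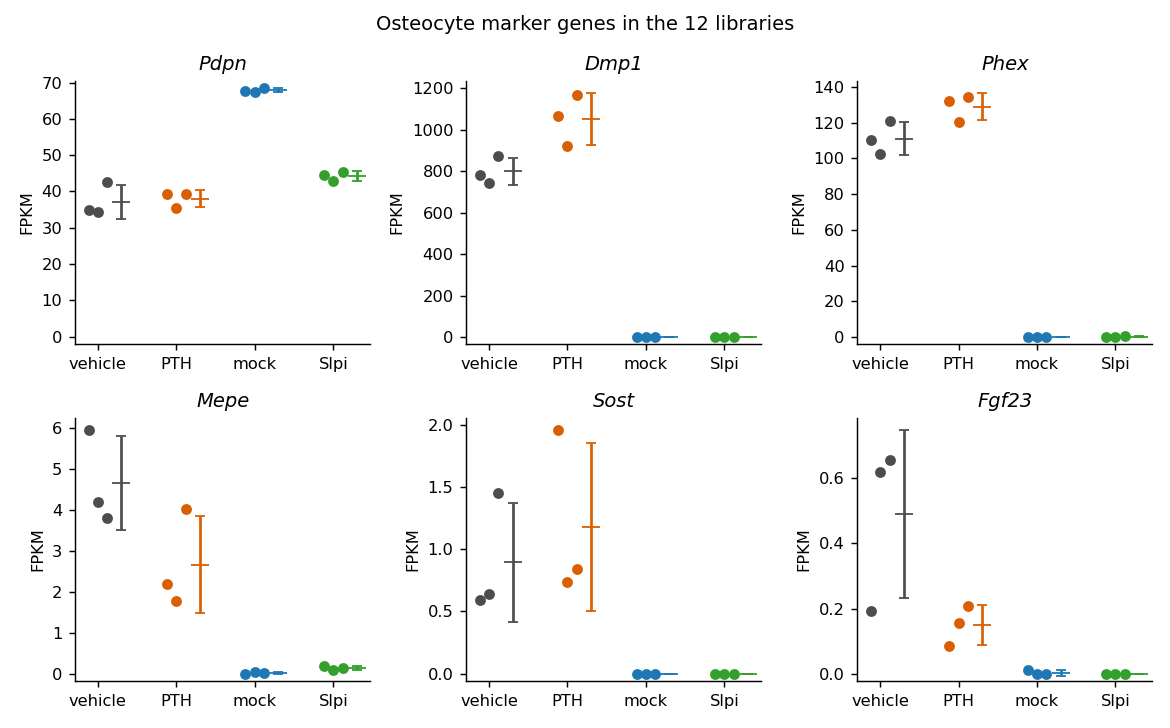
FPKM of each gene in each library (points) with the mean and SD of the 3 libraries (bar to the right of the points), by group, on linear axes that differ between panels. Dmp1 and Phex were high in sorted cells and near 0 in the cell line, Pdpn was highest in mock (67.9), and Sost was listed at 0 in all 6 libraries of the line.

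MC3T3-E1 cells had another order, with Pdpn first. In mock cells Pdpn was at 67.9 ± 0.613 FPKM, Dmp1 at 1.30 ± 0.156, Phex at 0.203 ± 0.0296, Mepe at 0.0247 ± 0.0240 and Fgf23 at 0.00467 ± 0.00808 (SD, n = 3), and Sost was listed at 0 in all 3. Dmp1 and Phex therefore stood 613 and 547 times higher in vehicle-treated sorted cells than in mock cells, whereas Pdpn stood at 0.547 of its mock level. By rank, Dmp1 was at percentile 99.7 in all vehicle libraries and 55.0 to 55.8 in mock, and Phex at 98.0 to 98.3 and 48.0 to 48.8. Pdpn stayed at a similar rank, 93.3 to 94.5 in vehicle and 95.3 to 95.4 in mock. The early gene of the path was thus the only one of the 6 at a comparable rank in both sources, and these ranks are a description with no test.

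To place each gene beside the osteoblast genes of the same library, its log2(FPKM + 1) was set against the median of 14 mature osteoblast genes (among them Sp7, Runx2, Alpl, Ibsp and Bglap). Col1a1 and Col1a2 had been on this list and were left out after their zeros were seen. In vehicle libraries Dmp1 lay 0.92 to 0.98 above that median, and Phex lay below it at -1.90 to -1.87. Pdpn lay at -3.53 to -3.37, Mepe at -6.55 to -5.90, Sost at -8.02 to -7.52 and Fgf23 at -8.43 to -7.87. The list median itself was 8.56 to 8.81 in vehicle and 8.99 to 9.07 in PTH libraries, on the log2 scale.
In PTH libraries Dmp1 lay at 0.85 to 1.20, a range that covered the vehicle range. Phex (-2.07 to -1.91), Pdpn (-3.81 to -3.66), Mepe (-7.52 to -6.67) and Fgf23 (-8.95 to -8.72) were all lower than in every vehicle library on this relative scale, while Sost (-8.20 to -7.51) overlapped. The list median was itself higher in every PTH library, and on this scale 42.4% of the 13004 genes tested lay lower in every PTH library and 4.65% higher, so lying lower is not particular to these genes. These offsets have no test.

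**Figure D2:**
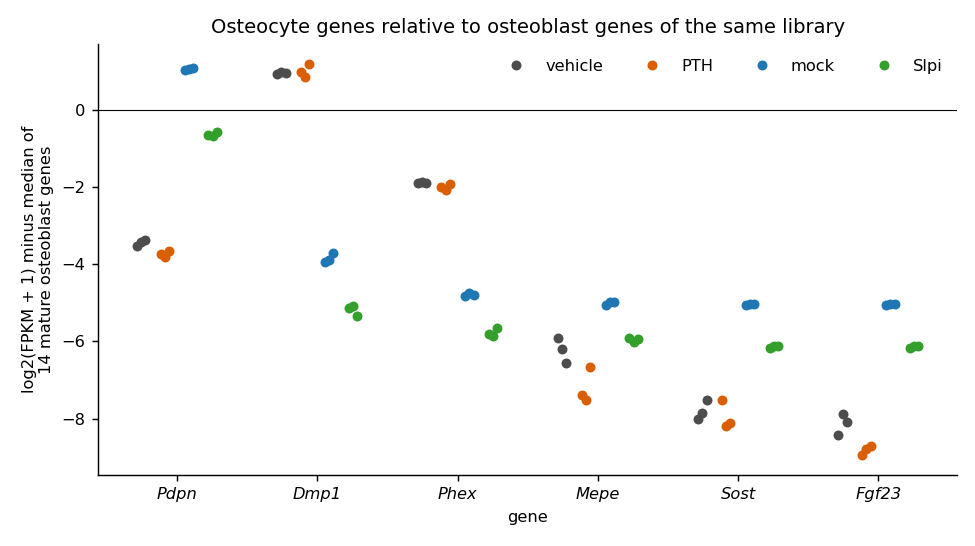
The log2(FPKM + 1) of each gene minus the median of 14 mature osteoblast genes in the same library (y axis), 1 point per library, coloured by group. Dmp1 lay above the osteoblast median in the 6 sorted libraries (0.85 to 1.20) and Pdpn above it in mock (1.03 to 1.09) and below it in Slpi cells (-0.68 to -0.57). The median itself was 5.03 to 5.07 in mock and 6.11 to 6.16 in Slpi libraries, and the shift of Pdpn includes that rise. After centring on these 14 genes, 11313 of 11358 called genes were lower in Slpi cells, so lying lower is not particular to Pdpn.

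The first comparison asked whether intermittent PTH moved the sorted cells along the path. None of the 5 members tested was called (limma on log2(FPKM + 1), Benjamini-Hochberg adjusted p threshold 0.05), against 15.2% of the 13004 genes tested (6.38% called higher and 8.85% lower). Dmp1 and Mepe had an unadjusted p under 0.05, as 4353 of all genes did. Fgf23 did not reach 1 FPKM in any library and was not tested.

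Dmp1, an acidic protein that nucleates mineral, was at 781, 745 and 874 FPKM in vehicle and 1068, 923 and 1169 in PTH libraries. The groups did not overlap, as in 40.4% of genes tested (19.5% with PTH higher and 20.9% with PTH lower). The log2 fold change was 0.39 ± 0.119 (SE, n = 3; 95% interval 0.11 to 0.67), with a limma adjusted p = 0.0673 and an exact permutation p = 0.10, the smallest that 3 against 3 libraries can give. Without PTH replicate 2, the library with the high muscle marker sum, the log2 fold change was 0.48 and the limma adjusted p = 0.0399. It was 0.26 under quantile normalization (limma adjusted p = 0.133) and 0.06 after centring on the 14 osteoblast genes (limma adjusted p = 0.716), and over all 16 alternative settings the limma adjusted p ranged from 0.0297 to 0.716.

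Phex, a membrane endopeptidase of osteoblasts and osteocytes, was at 110, 102 and 121 FPKM in vehicle and 132, 120 and 134 in PTH libraries. The lowest PTH library lay just under the highest vehicle library, so the groups overlapped, and the log2 fold change was 0.22 ± 0.10 (SE, n = 3; interval -0.02 to 0.45; limma adjusted p = 0.181). Over the 6 libraries Phex varied with Dmp1 (Pearson r = 0.97 and Spearman's rho = 0.94 of log2 values, and r = 0.98 in the 4 libraries left without the 2 farthest from the Dmp1 median). These libraries share their treatment groups, depth and normalisation, and the correlation is a description. The Phex level was 13.7 to 14.1% of the Dmp1 level in vehicle and 11.5 to 13% in PTH libraries. Dmp1 itself separated between the groups while Phex overlapped. How many of all genes separate by their ratio to Dmp1 was not counted, so whether the separation of this ratio is particular to Phex is not known.

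Mepe, whose acidic peptide inhibits mineralisation until PHEX clears it, was at 5.94, 4.18 and 3.81 FPKM in vehicle and 2.18, 1.78 and 4.01 in PTH libraries. PTH replicate 3 lay inside the vehicle range and the other 2 lay below it. Its log2 fold change was -0.65 ± 0.257 (SE, n = 3; interval -1.26 to -0.05; limma adjusted p = 0.126). These levels rested on few reads. The steps of the FPKM values corresponded to 56, 31 and 48 reads in vehicle and 23, 21 and 53 in PTH libraries, if 1 step is 1 read. Pooled over libraries and corrected for depth, the ratio of PTH to vehicle was 0.595 (exact 95% interval 0.454 to 0.778, counting error only). Without PTH replicate 3 the log2 fold change was -0.91 and the limma adjusted p = 0.0386, so that library decided the call.

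Pdpn was at 34.8, 34.2 and 42.5 FPKM in vehicle and 39.3, 35.3 and 39.4 in PTH libraries. The PTH values lay inside the vehicle range, and the log2 fold change was 0.04 ± 0.117 (SE, n = 3; interval -0.24 to 0.31; limma adjusted p = 0.847), and its sign turned negative under 5 of 16 alternative settings, 3 of them scalings.

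Sost was at 0.589, 0.641 and 1.45 FPKM in vehicle and 1.96, 0.739 and 0.840 in PTH libraries. In each group 1 library was high and 2 were low, and the groups overlapped. These values stood for 7, 6 and 23 reads against 26, 11 and 14, and the pooled ratio was 1.17 (exact 95% interval 0.751 to 1.85, counting error only). The log2 fold change was 0.19 ± 0.288 (SE, n = 3; interval -0.49 to 0.87; limma adjusted p = 0.666) and turned negative without PTH replicate 1 (-0.05) and after centring on the 14 osteoblast genes (-0.14). A change in sclerostin mRNA was not detectable at this depth 24 h after the last dose, and the interval leaves room for one in either direction.

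Fgf23 was at 0.195, 0.618 and 0.655 FPKM in vehicle and 0.0871, 0.155 and 0.208 in PTH libraries. Vehicle replicate 1 lay inside the PTH range and the other 2 above it. The reads were 2, 5 and 9 against 1, 2 and 3, with a pooled ratio of 0.311 (exact 95% interval 0.0995 to 0.835, counting error only). With no filter on low values its log2 fold change was -0.36 (limma adjusted p = 0.166).

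**Figure D3:**
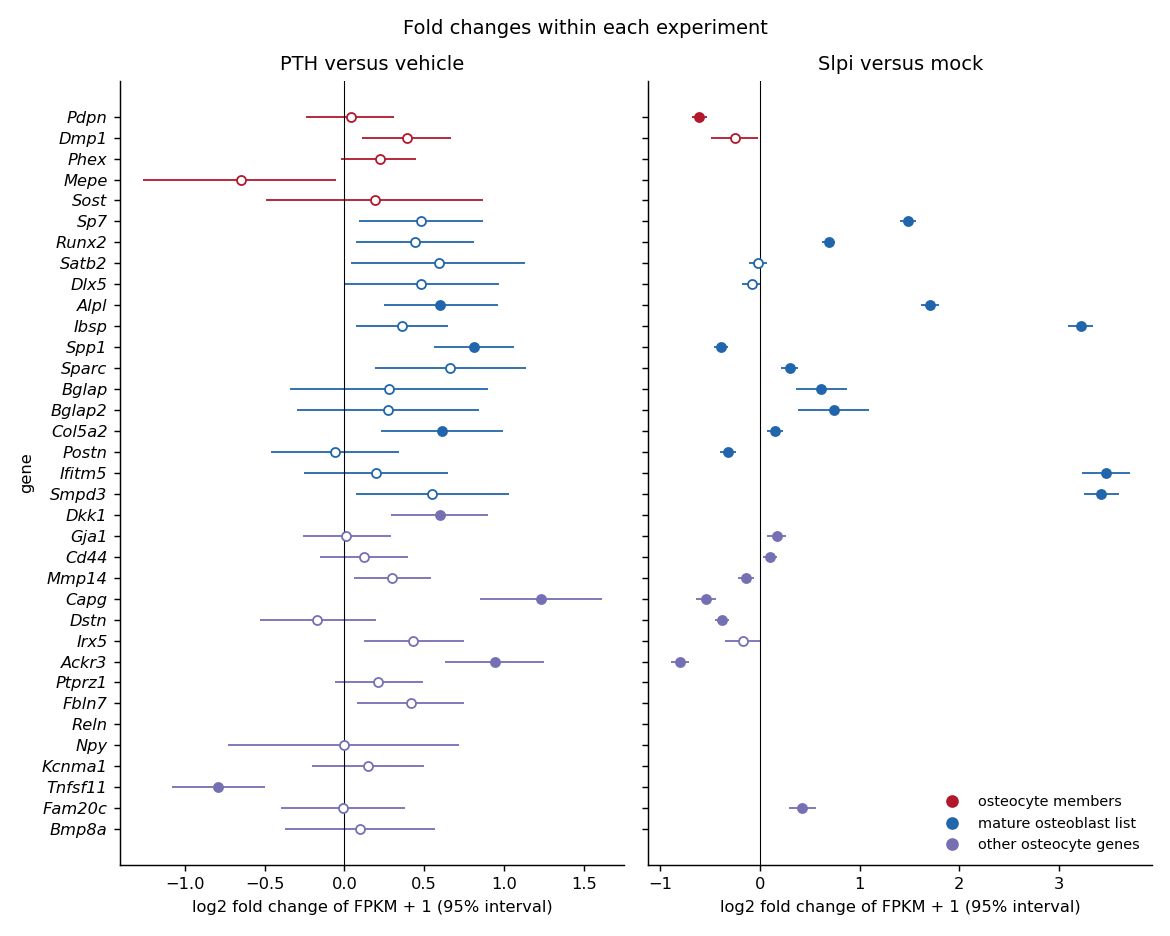
The log2 fold change of FPKM + 1 with its 95% limma interval for the tested osteocyte genes and 2 lists, PTH against vehicle (left) and Slpi against mock (right), on x axes of different range. Filled points passed the adjusted p threshold of 0.05, genes with no point were below the filter, and Col1a1 and Col1a2 were left out. Under PTH the unadjusted intervals of Dmp1 (0.11 to 0.67) and Mepe (-1.26 to -0.05) lay on opposite sides of 0, and neither gene was called. In Slpi cells Pdpn (-0.61) and Ibsp (3.22) moved apart.

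Of 16 mature osteoblast genes tested, 3 rose and 0 fell, where 6.38% of all genes tested were called higher and 8.85% lower. The list had a median log2 fold change of 0.46, beside 0.00661 over all genes. The 16 include Col1a1 and Col1a2 with their zeros, and neither was called. The called genes were Spp1, which encodes osteopontin (0.81, limma adjusted p = 0.0139), the fibrillar collagen gene Col5a2 (0.61, limma adjusted p = 0.047) and Alpl, the phosphatase that frees phosphate for mineral (0.60, limma adjusted p = 0.0398). Ibsp, the bone sialoprotein gene, had 0.36 (limma adjusted p = 0.094), Sp7, an osteoblast transcription factor, 0.48 (limma adjusted p = 0.0924), and Bglap, which encodes osteocalcin, 0.28 (limma adjusted p = 0.485). The Dmp1 level stayed at 59.7 to 64.6% of the Ibsp level in vehicle and 62.6 to 64.5% in PTH libraries. Over all genes tested, 1 was called without vehicle replicate 1 and 0 without vehicle replicate 2. Alpl was not called under quantile normalization (0.32, limma adjusted p = 0.146), nor Col5a2 (limma adjusted p = 0.0504).

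Of 15 other osteocyte genes tested, 3 rose and 1 fell (median 0.15). Capg, an actin-capping protein, was at 15.7, 10.7 and 13.4 FPKM in vehicle and 29.9, 36.8 and 29.8 in PTH libraries (log2 fold change 1.23, limma adjusted p = 0.0139). Ackr3, a scavenging chemokine receptor, was at 30.9, 28.0 and 35.5 against 65.9, 53.1 and 64.5 FPKM (0.94, limma adjusted p = 0.0143). In both, every PTH library lay above every vehicle library. Dkk1, a secreted Wnt antagonist, rose by 0.60 (limma adjusted p = 0.0304). Tnfsf11, which encodes RANKL, the osteoclast-forming cytokine, was at 11.8, 13.03 and 12.3 FPKM against 6.49, 7.76 and 6.11, and its log2 fold change was -0.79 (limma adjusted p = 0.0168). T cells also make Tnfsf11. The sort was for Lin- and CD45- cells, but RNA of Ptprc, the CD45 gene, was present in all 6 libraries. It was at 56.9, 59.2 and 35.9 FPKM in vehicle and 10.1, 8.53 and 0.930 in PTH libraries. The part of the lower T and NK markers (103 to 163 FPKM in vehicle, 1.18 to 23.3 in PTH libraries) in the Tnfsf11 difference was not tested. The gap junction gene Gja1, at 508, 466 and 575 FPKM against 541, 465 and 554, overlapped between groups.

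Among the genes that act with sclerostin, 4 of 14 tested rose and 0 fell (median 0.33). They were Dkk1, the salt-inducible kinase gene Sik1 (0.73, limma adjusted p = 0.047), the histone deacetylase gene Hdac5 (0.57, limma adjusted p = 0.0334) and Mef2a (0.49, limma adjusted p = 0.0459). SIK kinases, class IIa deacetylases and MEF2 factors form the chain through which PTH acts on the Sost enhancer. The PTH receptor gene Pth1r had 0.30 (limma adjusted p = 0.20), Mef2c 0.34 (limma adjusted p = 0.122) and Lrp4, the receptor that presents sclerostin to its partners, 0.08 (limma adjusted p = 0.809). After rescaling each library to the same sum, 1 of the 4 was called, Dkk1, and the other 3 had limma adjusted p = 0.0581 (Sik1), 0.056 (Hdac5) and 0.0743 (Mef2a).

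Among the genes of phosphate handling, 4 of 13 tested rose and 1 fell (median 0.37). Furin, a protease that can cleave FGF23, rose by 0.72 (limma adjusted p = 0.0379), the FGF receptor gene Fgfr1 by 0.67 (limma adjusted p = 0.03) and Alpl as above. Vdr, the vitamin D receptor gene, was the one that fell (-0.59, limma adjusted p = 0.0416). The other to rise was Slc20a1, a sodium-phosphate cotransporter gene that lay outside the rule for naming and was added after its values were seen, at 44.2, 54.0 and 49.7 FPKM in vehicle and 66.6, 70.3 and 66.2 in PTH libraries. Under quantile normalization 2 of the 5 were called, Furin and Vdr. Galnt3, whose enzyme protects FGF23 from cleavage, had 0.29 (limma adjusted p = 0.118), Fam20c, the kinase that opens it to cleavage, -0.01 (limma adjusted p = 0.967), and Enpp1, which makes the mineral inhibitor pyrophosphate, 0.37 (limma adjusted p = 0.0971). Of 12 genes of podoplanin signalling and dendrites, 1 fell and 0 rose: Ezr, which encodes the membrane linker ezrin (-0.81, limma adjusted p = 0.0457, and 0.0512 after rescaling).

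The second comparison asked whether Slpi moved MC3T3-E1 cells along the path. 1 of the 2 members tested was called, Pdpn, and it was lower. In this comparison 60.8% of the 11466 genes tested were called, 31.9% higher and 28.9% lower, while 1.12% were called with at least a 2-fold change, so a call alone says little. After rescaling each library to the same sum, 35.0% of calls were higher, against 52.5% without it, and under PTH 30.4% against 41.9%.

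Pdpn was at 67.7, 67.4 and 68.6 FPKM in mock and 44.6, 42.8 and 45.4 in Slpi libraries. The groups did not overlap (67.1% of genes tested, 34.9% with Slpi higher and 32.2% with Slpi lower), and the lowest mock value lay far above the highest Slpi value. The log2 fold change was -0.61 ± 0.0333 (SE, n = 3; 95% interval -0.68 to -0.53), the ratio of means was 0.652, the limma adjusted p = 4.53e-06 and the exact permutation p = 0.10, the smallest possible. Its percentile went from 95.3 to 95.4 in mock to 91.9 to 92.5 in Slpi libraries.

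Dmp1 was at 1.20, 1.23 and 1.48 FPKM in mock and 1.05, 1.08 and 0.694 in Slpi libraries. The groups did not overlap, as in 67.1% of genes tested (32.2% with Slpi lower). The log2 fold change was -0.25 ± 0.103 (SE, n = 3; interval -0.49 to -0.02; limma adjusted p = 0.0616). It passed the threshold after that rescaling (-0.38, limma adjusted p = 0.0283) and with no trend in the variance (limma adjusted p = 0.0426).

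The other members stayed below 1 FPKM in all 6 libraries and were not tested. Phex was at 0.189, 0.237 and 0.183 FPKM in mock and 0.279, 0.197 and 0.363 in Slpi libraries, with overlap. Mepe was at 0, 0.048 and 0.026 against 0.187, 0.081 and 0.134 FPKM, which stood for 0, 2 and 1 reads against 7, 3 and 5. The Slpi values all lay above the mock values, as in 34.9% of genes tested, a set without Mepe. The pooled ratio was 5.5 (exact 95% interval 1.56 to 29.6, counting error only). With no filter the log2 value for Mepe was 0.15 (limma adjusted p = 0.021), a small value because of the pseudocount of 1. Fgf23 was listed at 0.014 FPKM in mock replicate 1 and at 0 in the other 5 libraries.

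In the same libraries 11 of 16 mature osteoblast genes rose and 2 fell, where 31.9% of all genes tested were called higher and 28.9% lower. The list had a median log2 fold change of 0.45, beside 0.00414 over all genes. Ifitm5, a membrane protein of mineralising osteoblasts, was at 1.61, 2.05 and 1.62 FPKM in mock and 29.3, 34.1 and 25.5 in Slpi libraries (3.47, limma adjusted p = 2.18e-07). Smpd3, a sphingomyelinase needed for mineralisation, was at 0.849, 0.934 and 0.998 against 18.6, 22.2 and 18.4 (3.42, limma adjusted p = 6.22e-08). Both separated widely, as did Alpl, which rose by 1.71 (limma adjusted p = 6.36e-08), and Sp7, which rose by 1.49 (limma adjusted p = 6.36e-08). Bglap rose by 0.61 (limma adjusted p = 0.00165) from a mean of 1.49 FPKM. Spp1 was 1 of the 2 that fell (-0.39, limma adjusted p = 2.21e-05), and the other was Postn, which encodes the matrix protein periostin and was named after its values were seen.

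Ibsp stands next to Mepe and near Dmp1 in 1 cluster of acidic phosphoprotein genes on chromosome 5 (GRCm38): Dspp at chr5:104170712-104180127, Dmp1 at chr5:104202613-104214102, Ibsp at chr5:104299171-104311469, Mepe at chr5:104325329-104338611 and Spp1 at chr5:104435118-104441050. Ibsp was at 39.8, 37.9 and 42.5 FPKM in mock and 372, 409 and 364 in Slpi libraries (log2 fold change 3.22, limma adjusted p = 3.21e-08). Dmp1, in the same cluster, had -0.25, and its level was 3.00 to 3.49% of the Ibsp level in mock and 0.191 to 0.282% in Slpi libraries. In the sorted cells that share was at least 59.7% in every library. Dspp, a dentin gene, was listed at 0 in all vehicle, mock and Slpi libraries and at 0.166, 0.0886 and 0.106 FPKM in the PTH libraries.

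**Figure D4:**
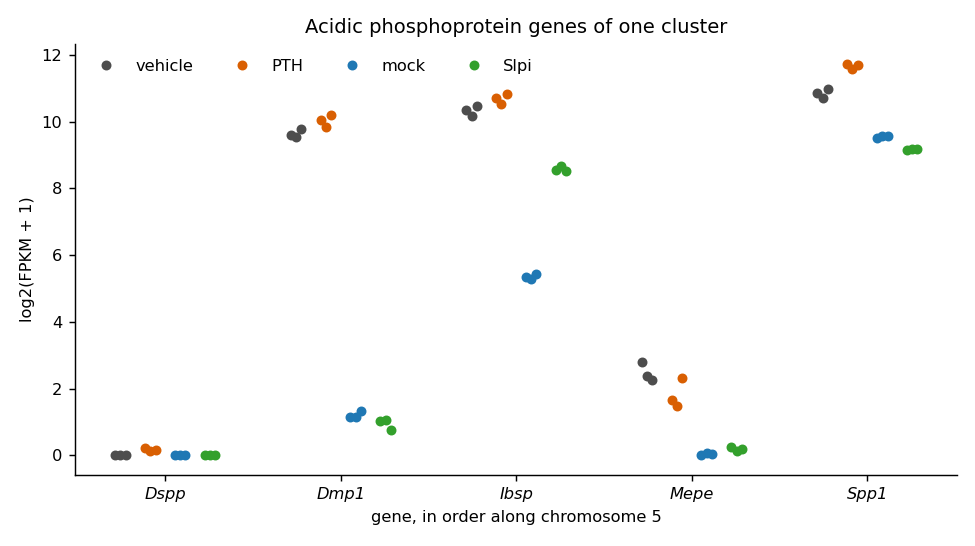
The log2(FPKM + 1) of the 5 acidic phosphoprotein genes in order along chromosome 5, 1 point per library, coloured by group. Ibsp was higher in Slpi than in mock cells (log2 fold change 3.22) while Dmp1 stayed near the bottom of the axis in both.

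The other lists moved both ways in Slpi cells, as did all genes tested (31.9% called higher and 28.9% lower). Of 8 other osteocyte genes tested, 3 rose and 4 fell (median -0.16). Ackr3 was at 37.2, 39.2 and 39.4 FPKM in mock and 22.3, 21.0 and 22.0 in Slpi libraries (-0.80, limma adjusted p = 2.91e-06), and Capg at 113, 114 and 114 against 82.0, 73.2 and 78.6 (-0.54, limma adjusted p = 2.19e-05). These 2 genes were higher under PTH in the sorted cells and lower with Slpi in the line, and the difference between the experiments was not tested. Dstn, an actin-severing protein gene, had -0.38 (limma adjusted p = 2.38e-05) and Fam20c 0.42 (limma adjusted p = 0.00039). Dkk1 was listed at 0 in all 6 libraries.

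Of 14 sclerostin-axis genes tested, 5 rose and 7 fell. Pth1r was at 15.6, 14.9 and 14.6 FPKM in mock and 78.5, 75.6 and 72.2 in Slpi libraries (2.25, limma adjusted p = 3.21e-08). Mef2c rose by 1.56 (limma adjusted p = 8.04e-07) and Lrp4 by 1.06 (limma adjusted p = 2.97e-06), and Sik1 had -0.72 (limma adjusted p = 0.000107). The receptor and the factor that act on Sost were thus higher while Sost was listed at 0 in the same libraries. Of 10 phosphate genes tested, 8 rose and 2 fell. Phospho1, a phosphatase of matrix vesicles, rose by 2.92 (limma adjusted p = 6.8e-07) from 0.449, 0.288 and 0.180 FPKM to 8.26, 10.4 and 8.08, and Vdr had -0.88 (limma adjusted p = 1.33e-06). Galnt3, below the filter, was at 0.020, 0.020 and 0 FPKM against 0.429, 0.654 and 0.464, and Enpp1 stayed at or below 0.102 FPKM.

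Around podoplanin, 2 of 11 genes tested rose and 4 fell (median -0.07). Ezr, whose protein links podoplanin to actin, had -0.54 (limma adjusted p = 1.26e-05) and its relative Rdx 0.24 (limma adjusted p = 0.00188, and 0.0511 after rescaling). Lgals8, a galectin that binds podoplanin, had -0.29 (limma adjusted p = 0.000432), and Mmp14, a membrane protease, -0.14 (limma adjusted p = 0.00749). Ezr was lower in the treated group of both experiments, at 50.0, 50.7 and 43.0 FPKM in vehicle against 24.4, 37.8 and 20.9 in PTH libraries and at 29.7, 28.7 and 30.0 in mock against 20.1, 20.4 and 19.3 in Slpi libraries.

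The genes whose log2 levels varied most like each member over the 6 sorted libraries were Uso1 and Shc1 for Dmp1 (both r = 0.998), C130050O18Rik and Ppt2 for Phex (both r = 0.995), Setd8 (r = 0.988) and Klhl20 (r = 0.984) for Mepe, and Fbxo30 (r = 0.992) and Wwtr1 (r = 0.985) for Pdpn. Of 13003 genes compared, 605 reached an r of 0.95 with Dmp1 (4.65%), 253 with Phex (1.95%), 34 with Mepe (0.261%) and 12 with Pdpn (0.0923%). Uso1 illustrates the pattern of Dmp1, at 46.4, 44.2 and 52.9 FPKM in vehicle and 68.1, 58.2 and 74.9 in PTH libraries. Wwtr1 had that of Pdpn, at 39.8, 38.6 and 50.8 against 46.0, 41.2 and 48.3 FPKM, with vehicle replicate 3 highest in both.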

How the data were processed

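The authors deposited FPKM values per gene, made with TopHat2 2.0.13, Bowtie2 2.2.3, SAMtools 0.1.19 and Cufflinks 2.2.1 on mm10 per the labels; the gene annotation was not given in the sources used here. Reads were 75 bases long. Each experiment was fitted alone with limma 3.58.1 (R 4.3.3; eBayes with trend) on log2(FPKM + 1), 3 against 3 libraries, for genes with at least 1 FPKM in at least 1 of 6 libraries. Benjamini-Hochberg adjustment ran over all genes tested. Fold changes on this scale understate the change of low genes. The script was tested on simulated data. Total counts were not analysed here. Low FPKM values were divided by their common step, in libraries scaled by relative depth, to recover reads (tolerance 0.05 of a read); a step may stand for more than 1 read, and the interval of a ratio of pooled reads is the exact (Clopper-Pearson) binomial one.

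Named genes were the 6 members, every called gene of each list (the 4 with the largest fold change where more were called), 12 genes of bone biology whatever their values (Bglap, Ibsp, Spp1, Alpl, Sp7, Mef2c, Pth1r, Lrp4, Fam20c, Galnt3, Enpp1 and Dspp) and, for each member at 1 FPKM or more in all 6 sorted libraries, the 2 genes with the most similar levels. Markers of other cell types were given as sums, and some of them were named after their values were seen. The members and lists were chosen with earlier results of these data known. Gene positions came from GENCODE M21 and promoters from RefSeq (6 of 6 members matched). Ackr3 was listed as Cxcr7 in the sorted table, and Ankh, Hbb-bt and Trac were matched in neither. The Phex locus holds a miRNA, a snoRNA and a pseudogene that neither table lists.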

Additional observations from a re-analysis of the deposited data

How the results depend on the processing

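Each comparison was refitted under 16 alternative settings. Under PTH the number of called members, 0, became 1 in the fit with a replicate block (Dmp1, log2 fold change 0.39, limma adjusted p = 0.0297), and 1 after centring on the osteoblast list without Col1a1 and Col1a2, an alternative chosen after seeing the data (Mepe, -0.98, limma adjusted p = 0.0372). It ranged from 0 to 1 when single libraries were left out. Whether replicate numbers pair the samples could not be decided from weak correlations of deviations from means of 3 libraries. Same-numbered libraries correlated at 0.03, 0.07 and 0.10 in sorted cells, and other pairs at -0.12 to 0.07. In the line the values were 0.04, -0.05 and 0.00, against -0.10 to 0.10. The block changed no other member's call. Under PTH it called 2262 genes of all tested, against 1981 in the main fit, and 10 mature osteoblast genes against 3. In Slpi cells the number, 1, became 2 with no filter (Mepe), with no trend (Dmp1), after rescaling to 1000000 FPKM (Dmp1), after centring on the osteoblast list (Dmp1, -1.95) and after centring without Col1a1 and Col1a2 (Dmp1, -1.34). Without single libraries it stayed at 1.

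Signs reversed for Sost without PTH replicate 1 (-0.05) and after centring without Col1a1 and Col1a2 (-0.14), and for Phex under quantile normalization (-0.04) and that centring (-0.11). For Pdpn the log2 fold change was -0.06 under quantile normalization, -0.02 after rescaling, -0.29 after that centring, -0.01 without vehicle replicate 1 and -0.02 without vehicle replicate 2, in a range of -0.02 to 0.13 without single libraries. Mepe reached 0.37 after centring on all 16 osteoblast genes, a list whose median fell with the zeros of Col1a1 and Col1a2 (9.65 to 9.73 in vehicle replicates 1 and 2, 7.68 to 8.36 in the other sorted libraries). Genes called in all under PTH numbered 1981, 1310 with no filter, 1 unmoderated, 23 after centring on all 16 genes, 3318 after centring on 14, 1 without vehicle replicate 1, 0 without vehicle replicate 2 and 577 without PTH replicate 1. In Slpi cells the count of 6973 became 11426 and 11358 after the 2 centrings, which moved the median log2 fold change of all genes to -1.69 and -1.08 (1.03 and -0.32 under PTH), so that the centred values of Dmp1 in Slpi cells lie close to that of the median gene. The causes of the other differences were not tested. Sost, Mepe and Fgf23 are limited by read number, and 3 against 3 libraries cannot give an exact permutation p under 0.10.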

Other observations

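Other cell types were also read in the sorted libraries. Chondrocyte markers summed to 724 to 858 FPKM in vehicle and 868 to 1020 in PTH libraries, with 3 of 7 tested genes higher, and osteoclast markers to 144 to 162 and 253 to 292, with 1 of 2 higher. That gene was Ctsk, most of the osteoclast sum, at 141, 134 and 154 FPKM in vehicle and 225, 228 and 282 in PTH libraries. Oscar, Dcstamp and Calcr of the same list were listed at 0 in all vehicle libraries. Ctsk was also at 81.3, 79.6 and 77.8 FPKM in mock cells, so this sum is no measure of osteoclasts. Markers of mast cells and basophils summed to 48.3 to 75.6 and 0.854 to 10.2 (1 of 4 tested lower), and macrophage markers to 85.5 to 133 and 32.6 to 125 (1 of 8 lower). The lower gene of the macrophage list was Ptprc, the CD45 gene given above (log2 fold change -3.1, limma adjusted p = 0.027). Ptprc is not limited to macrophages, and no other gene of that list was called. Stromal and fat markers summed to 93.4 to 101 and 88.0 to 108 (1 of 8 higher). No tested gene was called among those of B cells (4.90 to 10.1 and 9.36 to 14.3), endothelium (4.81 to 6.98 and 1.48 to 6.24), erythroid cells (409 to 479 and 521 to 598) or muscle.

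In the MC3T3-E1 line, mast cell and basophil markers were listed at 0 in all 6 libraries. Sums were at most 0.239 for endothelial, 0.269 for erythroid, 2.204 for muscle, 2.03 for T and NK, 2.10 for neutrophil and 3.87 for macrophage markers, and no tested gene of these lists was called except 1 lower T and NK gene. B cell markers summed to 14.9 to 16.6 in mock and 9.58 to 11.9 in Slpi libraries (1 of 1 lower), chondrocyte markers to 128 to 140 and 119 to 139 (2 of 3 higher, 1 lower), stromal and fat markers to 202 to 208 and 134 to 151 (1 of 4 higher, 3 lower), and osteoclast markers to 77.9 to 81.4 and 75.3 to 82.0 (0 of 1 called).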
